A study of Mus musculus with 8 samples.

Results

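The regions described here had an H3K27ac peak in every H3K27ac list of the study and an H3K9ac peak in none of its H3K9ac lists. In 16 peak lists from mouse small intestinal crypts, overlapping H3K27ac peaks (by at least 1 bp) on chromosomes 1 to 19, X and Y were merged into 112301 regions, and 16401 of these, called constant below, held a peak of all 8 H3K27ac lists. Of the constant regions, 709 overlapped no peak of any of the 8 H3K9ac lists. They made up 4.32% of the constant regions and 0.631% of all merged regions. They are called regions without H3K9ac below, which means without a called peak. Presence of H3K27ac peaks and absence of H3K9ac peaks chose the regions and are not results about them.

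All mice were male C57BL/6J animals aged 9 weeks. The 4 groups were fed or fasted for 24 h, without tetracycline or after 21 days of it, and are written Fed (-Tetra), Fast (-Tetra), Fed (+Tetra) and Fast (+Tetra). Crypts were separated from the gut wall and made into single cells with trypsin, so the epithelium and any cells carried along with it entered the same library. Each group had 1 sample per mark and each sample had 2 peak lists, called list 1 and list 2 here after the names under which they were deposited. Nothing in the labels says whether the lists of a sample came from different mice, how many mice were pooled, or how the IgG antibodies they name were used. A p-value below therefore measures the spread between lists, which may be technical, and is too small if the lists are repeats of a preparation.

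Acetylation of histone H3 opens chromatin and recruits bromodomain proteins. H3K27ac, placed mainly by the acetyltransferases p300 and CBP, lies at active promoters and at active enhancers, the distal elements that many intestinal transcription factors bind. H3K9ac, placed mainly by GCN5 and PCAF, is richest at the start sites of active genes and is found at enhancers as well. In CUT&Tag an antibody leads a transposase to the mark and the tagged DNA is sequenced, so that a peak is a stretch where tags pile up above the threshold of the peak caller. A region without a peak is a region below that threshold at the depth of the library, which is unknown here, and not a region shown to lack the mark.

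Sequences were at hand only where a region met a listed start site, and these show what kind of start sites the 709 regions held. RefSeq promoter windows for GRCm38.p6, each running from 250 bases before a start to 50 after it, met 15 of the regions, with 16 windows in all. Of these windows 4 belonged to protein-coding genes (Ccl20, Gstp2, Rgs3 and Tpst2) and 12 to long non-coding RNAs. The lines that follow give the 250 bases before the start, 5′ to 3′ on the strand of the gene, with every CpG dinucleotide in capitals. They are Ccl20, encoding the chemokine that attracts CCR6-bearing immune cells, at chr1:83116516-83116765 on the plus strand, Gstp2, a glutathione S-transferase, at chr19:4042222-4042471 on the minus strand, Rgs3, a regulator of G-protein signalling, at chr4:62619422-62619671 on the plus strand, Tpst2, a tyrosylprotein sulfotransferase, at chr5:112288493-112288742 on the plus strand, and the non-coding 2010001M07Rik at chr9:60333859-60334108 on the plus strand. The last line is a contrast from outside the group: Cpt1a, the entry enzyme of mitochondrial fatty acid oxidation, at chr19:3323051-3323300 on the plus strand, where H3K27ac was constant and all 8 H3K9ac lists had a peak.
Ccl20: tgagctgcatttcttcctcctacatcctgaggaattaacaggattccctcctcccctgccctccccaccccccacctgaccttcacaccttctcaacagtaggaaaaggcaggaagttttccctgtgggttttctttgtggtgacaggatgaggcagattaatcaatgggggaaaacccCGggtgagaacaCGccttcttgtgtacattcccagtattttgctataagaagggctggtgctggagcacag
Gstp2: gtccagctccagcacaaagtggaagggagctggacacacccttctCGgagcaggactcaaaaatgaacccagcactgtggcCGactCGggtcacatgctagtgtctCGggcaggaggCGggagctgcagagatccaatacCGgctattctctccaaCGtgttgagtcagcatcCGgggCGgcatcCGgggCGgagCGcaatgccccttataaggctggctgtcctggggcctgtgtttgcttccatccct
Rgs3: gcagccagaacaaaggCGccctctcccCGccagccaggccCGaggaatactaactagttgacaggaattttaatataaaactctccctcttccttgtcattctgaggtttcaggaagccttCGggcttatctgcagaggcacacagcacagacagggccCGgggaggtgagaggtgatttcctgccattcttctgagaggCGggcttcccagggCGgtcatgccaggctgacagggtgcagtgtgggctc
Tpst2: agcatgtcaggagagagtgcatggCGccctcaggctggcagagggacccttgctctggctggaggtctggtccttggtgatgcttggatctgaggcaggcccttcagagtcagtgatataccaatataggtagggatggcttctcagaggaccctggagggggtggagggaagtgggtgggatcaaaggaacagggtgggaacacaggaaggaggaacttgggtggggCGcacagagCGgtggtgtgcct
2010001M07Rik: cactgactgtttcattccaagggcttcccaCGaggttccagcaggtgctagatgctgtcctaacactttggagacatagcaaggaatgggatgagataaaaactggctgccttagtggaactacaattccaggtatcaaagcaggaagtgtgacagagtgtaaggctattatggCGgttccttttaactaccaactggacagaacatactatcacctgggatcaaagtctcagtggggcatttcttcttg
Cpt1a: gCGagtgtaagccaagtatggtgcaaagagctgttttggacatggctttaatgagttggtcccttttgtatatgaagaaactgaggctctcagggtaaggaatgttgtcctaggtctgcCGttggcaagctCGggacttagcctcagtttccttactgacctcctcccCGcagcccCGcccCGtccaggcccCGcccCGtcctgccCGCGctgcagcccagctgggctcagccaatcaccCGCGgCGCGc

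These start sites were poor in CpG. The stretch printed for Ccl20 holds 2 CpG sites, that for 2010001M07Rik 2, that for Tpst2 3, that for Rgs3 7 and that for Gstp2 12, against 14 in Cpt1a. Over the full window of 300 bases the 16 windows had a median of 3 CpG sites and a highest count of 12. The windows in constant regions with H3K9ac in all 8 lists had a median of 23. The median was 7 over all windows of the start site table and 4 over its long non-coding windows, so the 16 were near the latter. The ratio of observed to expected CpG, the number of CpG times the window's length over the product of its C and G counts, is often called island-like above 0.6. None of the 16 windows passed 0.6. The share that passed it was 11.7% of the 60 windows in constant regions with H3K9ac in 1 list, 33.7% with H3K9ac in 3 lists, 58.9% in 5 and 80.5% of 4343 windows in all 8. It was 35.8% over all 32851 windows of the table and 14.0% over its long non-coding windows, the class that made up 12 of the 16. Median GC content was 52.0% in the 16 windows and 62.7% where all 8 H3K9ac lists had a peak. It was 52.7% over all windows and 48.3% over long non-coding windows, so the GC content of the 16 was near that of all windows.

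Short words of transcription factor motifs were counted in the same windows on both strands, none of them contained in another. The AP-1 word TGANTCA, bound by Fos and Jun dimers, stood in 5 of 16 windows (31.2%), which were those of Gstp2 and the non-coding Gm33323, Gm33398, Gm32571 and Gm19276. The first pair of these non-coding genes start within the same region, and their windows overlap. The word stands in the stretch that both windows share, so the same site was counted for both. That word stood in 28.3% of windows in constant regions with H3K9ac in 1 list, 4.72% with H3K9ac in all 8 lists, 7.81% of all windows and 9.31% of long non-coding windows. The SP word GGGCGG, which itself holds a CpG, was in 3 windows (18.8%) against 68.6% with H3K9ac in all 8 lists and 35.7% of all windows. The KLF word CACCC was in 10 windows (62.5%) against 57.5% of all windows. The TCF/LEF word CTTTGAT was in 2, the HNF1 word GTTAAT in 2 and the GATA word AGATAAG in 1, against 3.73%, 7.10% and 3.04% of all windows. The words of HNF4 (AAAGTCC), CDX (TTTATNG) and FOXA (GTAAACA) were in none of the 16, against 4.21%, 10.9% and 3.65% of all windows. A word in so few windows is a description of these stretches and not a binding site.

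Most of the 709 regions lay far from gene ends. The ends of 21887 protein-coding genes from the same RefSeq release served as landmarks, and 21 regions (2.96%) lay within 1 kb of an end. The exact 95% interval, 1.84% to 4.49%, treats the regions as independent and covers counting error only. With lists left out the share ran from 2.83% to 5.63%. Among the 15692 constant regions with H3K9ac in at least 1 list the share was 42.4%, and among the 3820 with H3K9ac in all 8 lists it was 84.1%. The median distance to a gene end was 22688 bp without H3K9ac and 3317 bp with it. Regions more than 100 kb from any gene end numbered 118 (16.6%), against 3.90% of constant regions with H3K9ac. A gene body contained or touched 323 of the regions (45.6%) and 75.6% of the constant regions with H3K9ac. Exons and introns are not listed in the gene table, so the position within a gene is not given here.

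Start sites gave the same picture on the chromosomes for which they were listed. A protein-coding start lay within 1 kb of 6 of 676 regions (0.888%), and a start of any listed kind within 1 kb of 24 (3.55%). With H3K9ac in at least 1 list these shares were 36.8% and 40.6%. No test accompanies these shares, because regions are not replicates and the absence of H3K9ac picked them.

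**Figure D1:**
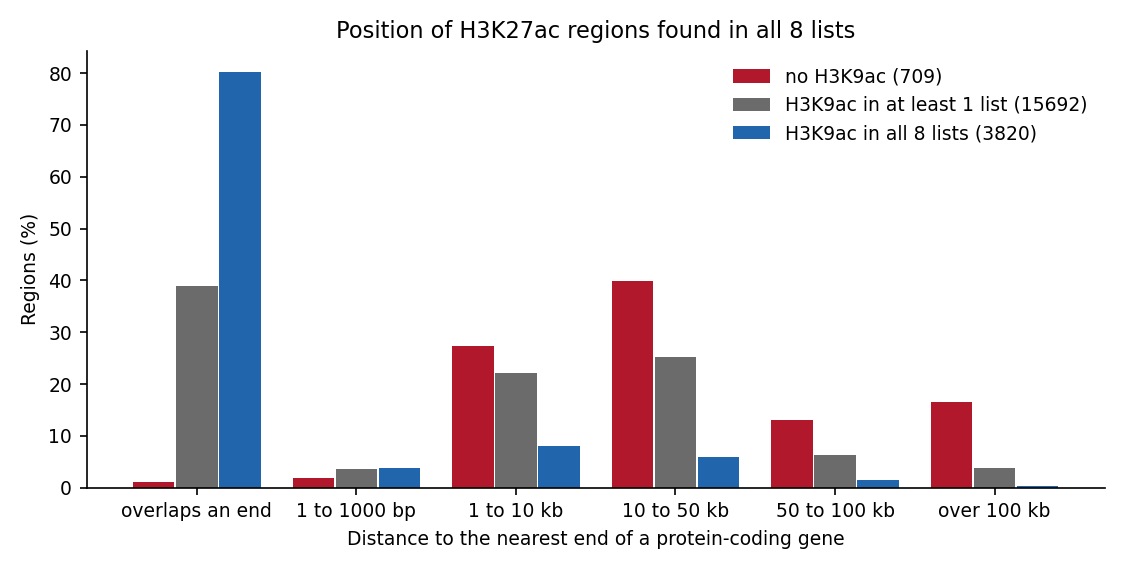
Share of constant H3K27ac regions (vertical axis, percent) in 6 classes of distance to the nearest end of a protein-coding gene (horizontal axis), for regions without H3K9ac, with H3K9ac in at least 1 list and with H3K9ac in all 8 lists. The 709 regions without H3K9ac are most frequent at 10 to 50 kb (283 regions, 39.9%), where those with H3K9ac in all 8 lists hold 5.97%, and 8 of the 709 overlap an end.

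The 709 regions were shorter and ranked lower than other constant regions, and a shorter region has less room to meet a peak. Their median length after merging was 1430 bp (quartiles 1167 and 1883, range 589 to 5947 bp), against 2138.5 bp for constant regions with H3K9ac. Position was therefore also read within the middle range of their own length and rank. Among regions between those length quartiles, 3.10% of 355 regions without H3K9ac and 37.0% of 5203 with it lay within 1 kb of a gene end. With the score rank held between its quartiles as well, the shares were 2.07% of 193 and 38.7% of 2172. Within both ranges the median length was 1429 bp without H3K9ac and 1492 bp with it, and the median percentile 62.9 and 65.2. The part of length and rank in the position was not tested.

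Position, width and rank changed stepwise with the number of H3K9ac lists. From 0 to 8 overlapping H3K9ac lists, the share of constant regions within 1 kb of a gene end went through 2.96%, 5.36%, 5.49%, 10.6%, 16.6%, 26.2%, 48.4%, 71.4% and 84.1%. The share inside a gene rose from 45.6% without H3K9ac to 49.3% with 1 list and 96.2% with all 8. The median width covered by H3K27ac peaks, averaged over the lists, was 956 bp without H3K9ac, 1072 bp with 1 list and 1859 bp with all 8. The 1381 regions with H3K9ac in exactly 1 list were the nearest neighbours of the 709 in each of these measures. Of these 1381 regions, 353 had their only H3K9ac peak in Fast (+Tetra) list 1, 290 in Fed (-Tetra) list 2 and 17 in Fed (-Tetra) list 1.

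**Figure D2:**
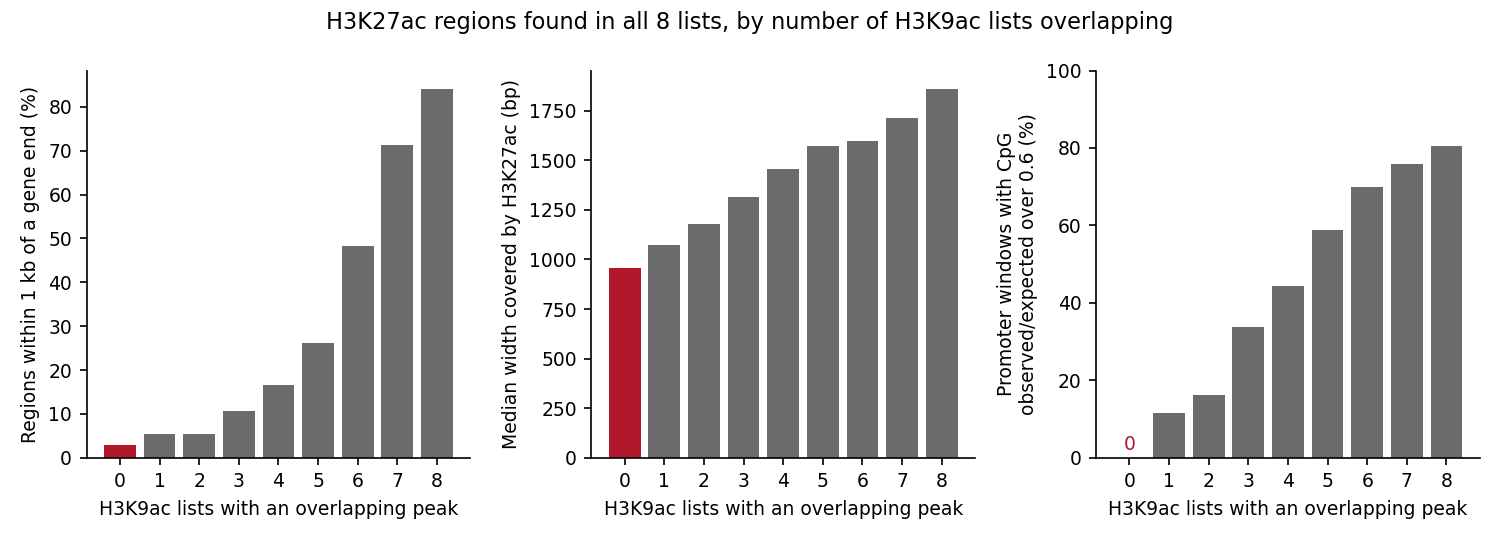
Constant H3K27ac regions grouped by the number of H3K9ac lists with an overlapping peak (horizontal axes, 0 to 8, regions without H3K9ac in red): share within 1 kb of a gene end, median width covered by H3K27ac peaks in bp, and share of promoter windows with a CpG ratio over 0.6. All 3 bars for 0 lists are the lowest of their panel, at 2.96%, 956 bp and 0%.

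On the other side of the rule stand regions that missed a single H3K27ac list. The share of merged regions without any H3K9ac fell from 78.3% of those in 1 H3K27ac list through 40.1% in 4 and 15.9% in 7 to 4.32% in all 8. The 948 regions with 7 H3K27ac lists and no H3K9ac resembled the 709 in position, with 4.64% within 1 kb of a gene end and 49.3% inside a gene. Fed (-Tetra) list 1 was the missing list in 333 of them, Fast (-Tetra) list 1 in 249 and Fed (+Tetra) list 1 in 211. The highest-ranked regions just outside the rule show how close the limit lies. A region 17380 bp from Kif13b, a kinesin motor gene, at chr14:64631442-64635111 had a median score percentile of 98.2 and an H3K9ac peak in Fed (-Tetra) list 2 only. A region 295894 bp from Pik3r1, the regulatory subunit of PI3-kinase, had a median percentile of 85.3 over its lists and lacked H3K27ac only in Fed (-Tetra) list 1. The second-ranked of each kind lay near Gm41844 (percentile 98.2, H3K9ac in Fed (+Tetra) list 1) and inside Arid2 (percentile 85.1, no H3K27ac in Fast (-Tetra) list 1).

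H3K9ac peaks were nonetheless close to many of the regions. The distance from a region to the nearest H3K9ac peak of any list had a median of 1680 bp, with quartiles of 795 and 3424 bp. Within 100 bp of such a peak lay 15 regions (2.12%), within 1 kb 233 (32.9%), and beyond 5 kb 110 (15.5%). Of the 233, 156 had a peak that near in 1 list, 77 in 2 to 7 lists and 0 in all 8. The nearest were a region 2 bp from a peak near E230025N22Rik, a region inside Gdpd1 at 10 bp, and a region 180421 bp from Jun, the AP-1 gene, at 11 bp. The farthest was 52528 bp from any H3K9ac peak, on chromosome X near Tex13c1.

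The distances were broadly shorter in H3K9ac lists with more peaks, but not in strict order of that number. The median distance was 27036 bp in Fed (-Tetra) list 1, which had 17249 peaks, and 15515 bp in Fed (+Tetra) list 1 with 24643 peaks. It was 14212 bp in Fast (-Tetra) list 2 with 35889 peaks. Fed (-Tetra) list 2 (51552 peaks), Fast (+Tetra) list 2 (53313) and Fed (+Tetra) list 2 (54158) lay between 7699 and 9237 bp. The shortest medians were those of both list 1 files of fasted mice, at 6564 bp without tetracycline (99050 peaks) and 5110 bp with it (97764 peaks). The Fed and Fast lists overlapped in this measure, and the number of peaks in a list moved broadly with it, so the part of feeding was not tested.

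**Figure D3:**
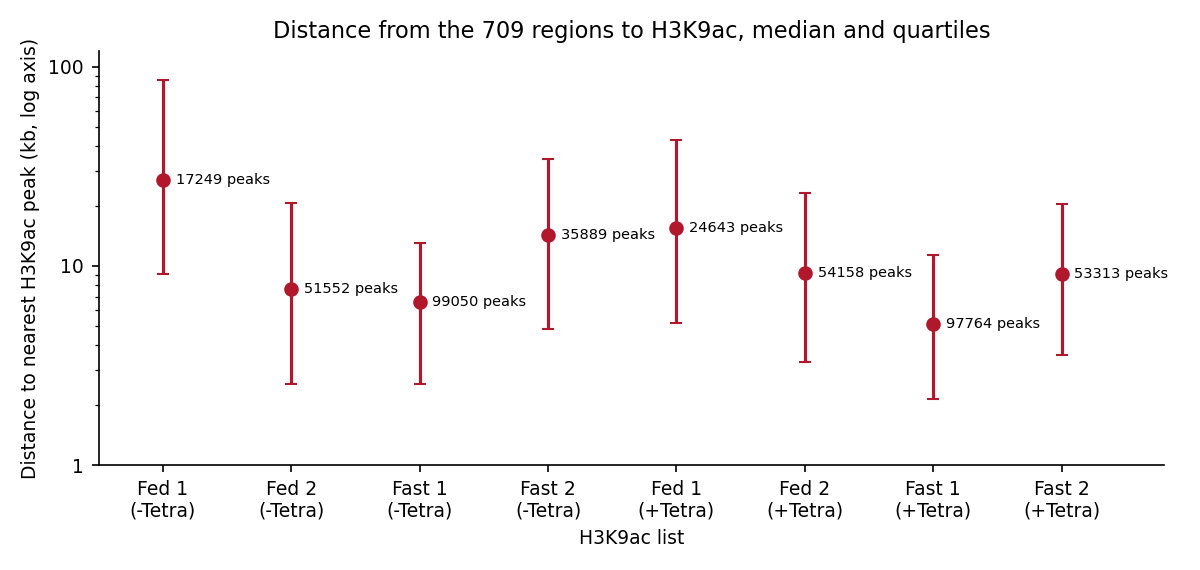
Distance from the 709 regions to the nearest H3K9ac peak (vertical axis, kb, logarithmic) in each H3K9ac list (horizontal axis); points are medians, bars run from the lower to the upper quartile, and the number of peaks in the list stands beside each point. The list with 17249 peaks has the longest median (27036 bp), and the lists with 99050 and 97764 peaks have the shortest.

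Within the H3K27ac lists themselves the regions were narrower than other constant regions everywhere. Covered width, the base pairs of a region under peaks of a list, had a median in Fed (-Tetra) of 797 bp in list 1 and 1011 bp in list 2, and in Fast (-Tetra) of 845 and 1107 bp. In Fed (+Tetra) it was 788 and 1078 bp, and in Fast (+Tetra) 906 and 1053 bp. List 1 was below list 2 in all 4 groups, and the Fed and Fast lists overlapped. Constant regions with H3K9ac had medians of 1210 to 1756 bp, and the ratio of the group without H3K9ac to the group with it ran from 0.573 to 0.657 over the 8 lists. The mean of the 8 medians was 948 bp with an SD of 166 bp between lists.

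**Figure D4:**
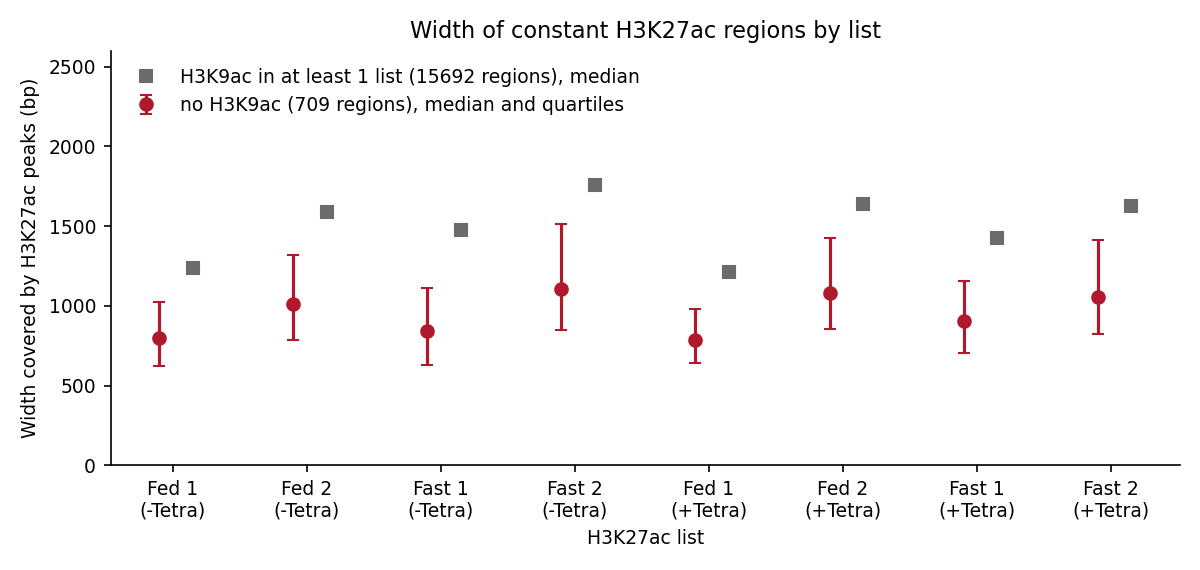
Width covered by H3K27ac peaks (vertical axis, bp) in each of the 8 H3K27ac lists (horizontal axis) for the 709 regions without H3K9ac (median, with bars from lower to upper quartile) and for the 15692 constant regions with H3K9ac (median). The medians without H3K9ac lie between 788 and 1107 bp, below the median with H3K9ac in every list.

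Peak scores placed the regions in the middle to upper part of each list. The score comes from the authors' peak calls, has no stated unit, and was turned into a percentile within its list. The median percentile of the 709 regions was 45.4 and 64.3 in the Fed (-Tetra) lists, 69.8 and 70.5 in Fast (-Tetra), 46.9 and 66.8 in Fed (+Tetra) and 68.4 and 60.9 in Fast (+Tetra). Constant regions with H3K9ac lay between 72.0 and 86.4. The 2 lowest medians belonged to list 1 of both fed groups. Splitting into more than 1 peak was rarer, at 6.21% to 10.4% of the regions per list against 14.4% to 22.6%, and 522 of the 709 (73.6%) had a single peak in every list against 54.0%. The widest list covered a median of 2.13 times as much of a region as the narrowest, against 1.87 for constant regions with H3K9ac.

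The regions were spread over the genome and lay beside other marked DNA. Every autosome and the X chromosome held some, from 2.42% of the constant regions of chromosome 17 (19 of 786) to 7.92% of those of the X (21 of 265). Neither of the 2 constant regions of the Y was among them. The median distance to the nearest constant region with H3K9ac was 8473 bp, and 377 of the 709 (53.2%) had one within 10 kb. Adjacent regions of the group lay within 10 kb of each other in 30 pairs and within 100 kb in 95.

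The 10 highest-ranked regions away from gene ends had median percentiles of 89.2 to 96.5. Each region was given the protein-coding gene it overlaps or else the nearest, which is a position and not a shown target. The first was at chr5:67519901-67522381, 85501 bp from Shisa3, of a family that holds back Wnt and FGF receptors, with a median percentile of 96.5. Its covered widths were 1747 and 2035 bp in Fed (-Tetra), 1449 and 2249 bp in Fast (-Tetra), 2139 and 2119 bp in Fed (+Tetra) and 1968 and 2481 bp in Fast (+Tetra). Fed and Fast lists overlapped there, and the narrowest value was Fast (-Tetra) list 1. The second region, at chr9:42248623-42250230, lay 1361 bp from Sc5d, a desaturase of cholesterol synthesis, with a median percentile of 93.9. It measured 981, 882, 1057 and 843 bp in the Fed lists and 993, 1492, 1114 and 1365 bp in the Fast lists, where the lowest Fast value was below the highest Fed value. The third lay inside Casp4, whose product senses bacterial lipopolysaccharide, and ranged from 866 bp in Fed (+Tetra) list 1 to 2937 bp in Fast (+Tetra) list 2.

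Next in rank were regions 8583 bp from Slc19a1, the reduced folate carrier (percentile 92.7), inside Lclat1, a cardiolipin-remodelling acyltransferase (91.8), and inside Arhgap17 (91.4). The seventh, at chr18:11316360-11318245, lay 230723 bp from Gata6, a zinc-finger factor that maintains the intestinal epithelium. Its widths were 1039 and 1509 bp in Fed (-Tetra), 1849 and 1774 bp in Fast (-Tetra), 1424 and 1512 bp in Fed (+Tetra) and 1299 and 1402 bp in Fast (+Tetra). Both Fast lists were wider than both Fed lists without tetracycline, and narrower than both Fed lists with it. The fitted difference between those fasting effects was -0.57 on the log2 scale (SE 0.35, limma, adjusted p = 1). The nearest H3K9ac peak was 33466 bp away. The last of the 10 were inside Macrod2, an ADP-ribosylhydrolase (90.7), 20181 bp from LOC115489489 (89.6) and 240577 bp from Klf12, a Krüppel-like repressor (89.2).

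**Figure D5:**
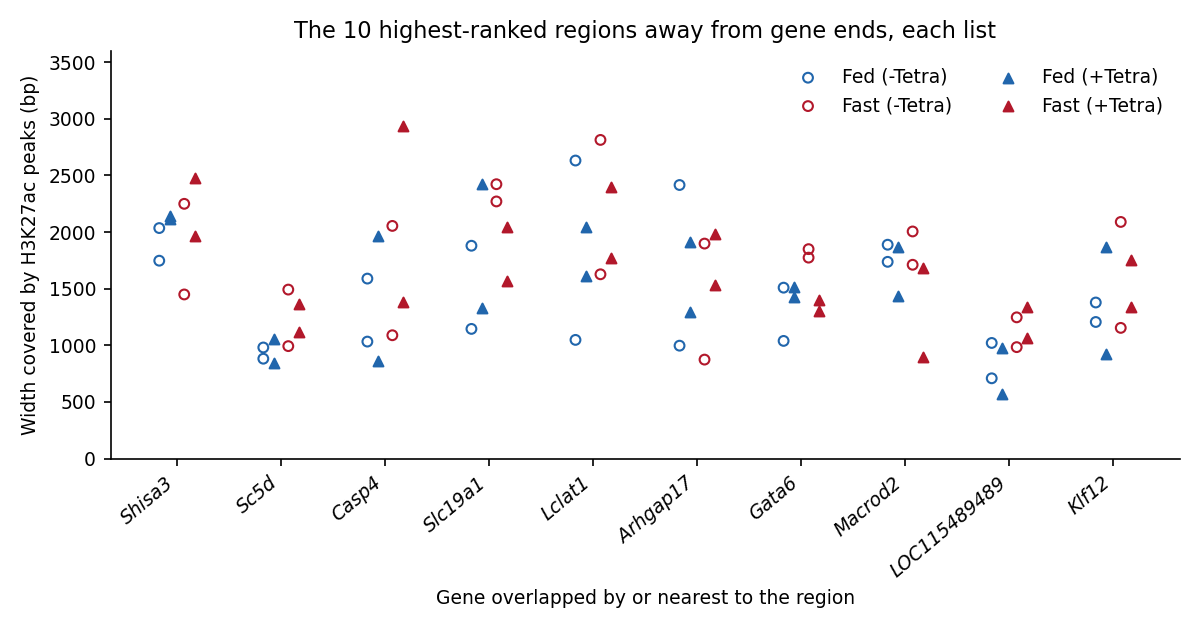
Width covered by H3K27ac peaks (vertical axis, bp) of the 10 highest-ranked regions more than 1 kb from a gene end (horizontal axis, by gene overlapped or nearest), with a point for each of the 8 lists, coloured by feeding and shaped by tetracycline. Fed and Fast points overlap at each of the 10 regions; the highest point is Casp4 in Fast (+Tetra) list 2, at 2937 bp.

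At gene ends the 5 highest-ranked regions lay at Olfr1160, an olfactory receptor (373 bp away, percentile 82.5), Synb, the placental envelope protein syncytin-B (344 bp, 77.2), Tmem174 (overlapping an end, 76.7), Itgb2, the beta chain of leukocyte integrins (921 bp, 76.3) and Ccl20 (overlapping an end, 76.0). The Ccl20 region, at chr1:83116382-83118221, contains the whole of the window whose sequence is given above. It measured 936 and 1289 bp in Fed (-Tetra), 1524 and 1238 bp in Fast (-Tetra), 1332 and 1081 bp in Fed (+Tetra) and 1296 and 1523 bp in Fast (+Tetra), with Fed and Fast overlapping. A second region without H3K9ac, at chr1:83095979-83097485, lay 19280 bp from the same gene. The Gstp2 region, at chr19:4041727-4042932, measured 700 and 930 bp in Fed (-Tetra), 1100 and 884 bp in Fast (-Tetra), 794 and 885 bp in Fed (+Tetra) and 532 and 859 bp in Fast (+Tetra). Its nearest H3K9ac peak was 3284 bp away. The 3 longest regions of the group lay 1274 bp from Etfbkmt, a mitochondrial methyltransferase (5947 bp), inside Rgs3 (3951 bp) and 71367 bp from 3110040M04Rik (3947 bp).

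The 709 regions were assigned to 623 genes, of which 550 had 1 region and 9 had at least 3. These were 2.85% of all protein-coding genes in the table and 7.39% of the 8427 genes with any constant region. For 97 of the 623 genes no other constant region was assigned. Atp2b1, a plasma-membrane calcium pump, had 4 regions, all outside the gene, beside 6 constant regions with H3K9ac. Pcsk5, a proprotein convertase, had 4 inside its body, and Bmp2, a ligand that restrains crypt stem cells, had 4 between 34998 and 189995 bp away. Lyzl4, a lysozyme-like gene, had 4 and no constant region with H3K9ac. Klf12, Jarid2 (a partner of Polycomb repressive complex), Klf6 and Fut8 (the core fucosyltransferase) had 3 each, and 2 of those of Jarid2, at chr13:44448808-44450735 and chr13:44450739-44452205, were next to each other. These counts were not adjusted for the length of genes or the spacing between them, and the part of either was not tested.

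Lists of intestinal genes were compiled from general knowledge, with earlier results of these data known. They differed in how many of their genes had such a region, beside 2.85% of all genes. Over all genes, 38.5% had a constant region, and 7.39% of those had one without H3K9ac. Of all constant regions, 4.32% were without H3K9ac. The counts that follow were not adjusted for how many constant regions the genes of a list had. Among intestinal transcription factors, 5 of 22 genes had one (22.7%), and 20 of 22 had a constant region of any kind. The 5 were Gata6, Gata4, Maf, Hnf4g and Klf4, with 7 regions in all beside 97 constant regions with H3K9ac. Hnf4g, a nuclear receptor of the villus, had both of its regions inside the gene. Of fasting and fatty acid oxidation genes, 13 of 15 had any constant region. There were 42 such regions with H3K9ac and 4 without it, the latter at 4 of the 15 genes. They were Ppara, the nuclear receptor that drives fat burning in fasting, Pparg, its relative, the coactivator gene Ppargc1a and the peroxisomal enzyme gene Ehhadh. Absorptive enterocyte markers had 1 of 15, a region 369747 bp from Sis, the sucrase-isomaltase. Any constant region was found for 14 of 15, with 41 regions with H3K9ac. Epithelial junction and keratin genes had 0 of 13, and 12 of 13 had constant regions, 46 in all and each with H3K9ac. Beside the 4.32% of all constant regions, counts of 0 to 7 regions without H3K9ac among so few do not set any of these lists apart.

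Stem cell markers had 0 of 12 genes (6 with any constant region) and regeneration genes 1 of 12, namely Areg, an EGF receptor ligand, with 2 regions. Tuft cell markers had 1 of 10 (Gfi1b, a transcription factor), Paneth cell markers 0 of 9, goblet cell markers 0 of 10 and enteroendocrine cell markers 0 of 13. With lists this short and 2.85% of all genes holding a region, counts of 0 or 1 do not set a list apart. Markers of other cells were checked against the labelled epithelium. Lymphocyte and myeloid genes had 0 of 14 with a region of the group and 2 of 14 with any constant region. Fibroblast, muscle and endothelial genes had 0 and 4 of 14, enteric neuron and glia genes 0 and 0 of 10, and genes of other tissues 0 and 2 of 12, where 38.5% of all genes had a constant region. Genes outside these short lists, picked after their values were seen, did have regions of the group: Itgb2 of leukocytes at a gene end, 2 regions inside Prrx1, a mesenchymal transcription factor, and 2 near Pcsk1, the prohormone convertase of endocrine cells. The counts of 0 therefore hold for the listed genes only, and the part of other cells in the regions was not tested.

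None of the 709 regions passed the threshold for a difference in width with fasting. Log2 covered width, each list centred on its median, was fitted with limma over all 16401 constant regions, and an adjusted p (Benjamini-Hochberg) under 0.05 was called. Of all regions 3 (0.0183%) were wider in fasted and 1 (0.00610%) was narrower, and 0 of these 4 were among the 709. The 4 overlapped H3K9ac in 2 or 3 lists and lay in or near Lfng, Lrrc20, Adra2a and Sectm1b. The count of 4 fell to 0 without centring and to 2 with the list number as a block. It rose to 9 among regions with exactly 1 peak in every list, and to 10 with width from first to last peak. In fits that left out a single list it moved both ways. At an unadjusted p under 0.05 stood 78 of the 709 (11%) and 1658 of all (10.1%). The median fitted difference, Fast minus Fed, was -0.08 in the 709 and -0.04 in all constant regions, with a median SE of 0.22 for a single region of the 709. Without centring the medians were 0.07 and 0.11, so their sign rests on the scaling. Without Fast (-Tetra) list 1 they were -0.03 in the 709 and -0.05 in all, so their order rests on that list.

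The region of the group with the smallest adjusted p lay 129821 bp from Fut8, at chr12:77105505-77107608. It measured 454 and 750 bp in Fed (-Tetra), 1783 and 2104 bp in Fast (-Tetra), 664 and 671 bp in Fed (+Tetra) and 909 and 1029 bp in Fast (+Tetra). Every Fast list was above every Fed list, and the fitted difference was 0.98 on the log2 scale (SE 0.19, limma, adjusted p = 0.132). The other regions of Fut8 had fitted differences of 0.15 (SE 0.18, adjusted p = 0.846) and -0.26 (SE 0.28, adjusted p = 0.799) in the same limma fit. A region 326430 bp from Klf4, a factor of differentiating epithelium, measured 1395 and 1568 bp in Fed (-Tetra), 737 and 1355 bp in Fast (-Tetra), 1014 and 1349 bp in Fed (+Tetra) and 704 and 988 bp in Fast (+Tetra). Its Fast values were lower at each matching list number, Fed and Fast lists overlapped, and the limma difference was -0.68 (SE 0.20, adjusted p = 0.299). The region inside Ppara measured 401 and 610 bp in Fed (-Tetra), 683 and 708 bp in Fast (-Tetra), 720 and 599 bp in Fed (+Tetra) and 1022 and 689 bp in Fast (+Tetra), with overlap between Fed and Fast (limma difference 0.27, SE 0.24, adjusted p = 0.764).

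When Fast (-Tetra) list 2 was left out, limma called 85 constant regions for fasting, 19 wider (0.116%) and 66 narrower (0.402%) in fasted. Of the 709 regions 4 were called (0.564%), all narrower, and the excess of narrower calls was thus not limited to the group. They lay in or near Lyzl4, Tent2, Prkce and Igip, and each had its lower Fast (-Tetra) value in list 1: 629 bp at Lyzl4, 269 bp at Tent2, 246 bp at Prkce and 261 bp at Igip. The list left out had 2075, 1190, 2238 and 981 bp at these regions. At Lyzl4, Tent2 and Prkce the Fed and Fast values overlapped over the 8 lists. At Igip they did not: the Fed values were 1847 and 1721 bp without and 1100 and 2109 bp with tetracycline, and the Fast values 261, 981, 966 and 726 bp. With all 8 lists the limma difference at Igip was -1.49 (SE 0.33, adjusted p = 0.178).

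No constant region passed the threshold for tetracycline in the limma fit (0% called in either direction). At an unadjusted p under 0.05 stood 45 of the 709 (6.35%) and 750 of all (4.57%). The median difference, +Tetra minus -Tetra, was 0.07 on the log2 scale in the 709 and 0.01 in all, and without centring 0.04 and -0.02, so the sign over all regions rests on the scaling. The test of whether the fasting difference changed with tetracycline called 0 regions (0%), with 36 of the 709 (5.08%) and 568 of all (3.46%) at an unadjusted p under 0.05. With 4 residual degrees of freedom the fit can miss real differences, and a p above the threshold does not show that widths were alike.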

How the data were processed

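Processed peak lists of CUT&Tag libraries for 2 marks were used, 8 lists for each mark and 2 for each of 8 samples. Per the submitters' processing notes, FastQC, Bowtie and SAMtools were used and the build is mm10. Peak names begin with MACS, per the deposited lists, and the names of the lists call the data downsampled. The peak caller's version, its threshold and the use of IgG libraries are not given in the sources used here. The deposited score of each peak is the authors' value with no stated unit, and was used only as a percentile within its list. Read totals are not given, so the depth is unknown.

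Regions, overlaps, distances and covered widths were computed in Python 3.11.15 with numpy 2.4.6 and pandas 2.3.3, and the exact interval with scipy 1.17.1. Widths were fitted with limma 3.58.1 in R 4.3.3 (4 group means, trended empirical Bayes). On simulated data the fit recovered only 21 of 100 planted fasting changes of 1 on the log2 scale. It recovered 81 of 100 planted changes of 2 and made 9 false calls. Gene ends and promoter windows are those of RefSeq for GRCm38.p6; the start site table was used on all chromosomes but 18. The regions and the gene lists were chosen with earlier results of these data known. Genes named in the text followed a written rule: the 10 highest regions by median percentile away from gene ends and 5 at gene ends, the 8 genes with most regions, the 3 longest regions, the list genes with a region (up to 5 a list), the 3 regions nearest to and 3 farthest from H3K9ac, called regions, and the 2 highest on either side of the rule. Of the 3 farthest regions, only the first is reported here. The regions of Fut8 with the smallest adjusted p, of Klf4, Ppara and Gstp2, the genes of the called constant regions, the second Ccl20 region, the 4 calls without a list, and the genes whose promoters are printed or named for a motif were chosen after their values were seen.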

Additional observations from a re-analysis of the deposited data

How the results depend on the processing

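The number of regions depended on which H3K9ac peaks were counted. It was 2186 with the peaks at or above the median score of each H3K9ac list, 3090 with the 17249 top peaks of each and 1653 with H3K9ac peaks of at least 500 bp. With peaks at or above the median score of each H3K27ac list it was 107, and with the 32392 top peaks of each 353. Leaving out lists gave 726 to 5209 regions; the extremes over lists of a number were 5209 without list 1 and 2719 without list 2, and single lists gave 726 to 1062. Leaving out list 1 of both H3K9ac Fast groups, an alternative chosen after seeing the data, gave 1368. The share within 1 kb of a gene end was 4.99% with peaks at or above the median score of each H3K9ac list and 5.08% with equal numbers of H3K9ac peaks. It was 2.83% to 5.63% with lists left out, while the constant regions with H3K9ac held 39.1% to 49.0% in every alternative that kept the 1 kb distance. It was 9.73% at 2.5 kb (47.4% with H3K9ac) and 30.3% at 10 kb (64.6%). The mean of the list medians of width was 1140 bp with peaks at or above the median score of each H3K27ac list, and 905.5 to 999.9 bp with lists left out. Constant regions called for fasting numbered 0 without centring, 9 among regions with exactly 1 peak in every list, 10 with width from first to last peak, and 0 to 85 with a list left out. Without Fed (-Tetra) list 2 they numbered 21, and without Fast (-Tetra) list 2 85, the setting with calls among the 709. Tetracycline and the interaction had 0 to 1 with a list left out. The median log2 difference was 0.073 without centring and -0.11 to -0.03 with a list left out. Deviations of lists with the same number were weakly and positively correlated in every pair of groups (0.086 to 0.206). Whether list numbers pair the lists is not settled by these values, and the main fit left the lists unpaired. With the list number as a replicate block, the median SE over all constant regions for fasting was 0.173, against 0.193 in the main fit. In the fit with the block, 2 regions were called for fasting and 0 of the 709. The cause of these changes was not tested. Limits: a missing peak means a signal below an unstated threshold at an unknown depth; lists of very different peak numbers were compared; and no sequence of the distal regions was used here.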
